A study of Mus musculus with 6 samples.

Results

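Pfdn4 and Cyp24a1 are neighbouring genes of mouse chromosome 2 that are read from opposite strands and whose first exons overlap. The pair was named because the Pfdn4 counts of flox/flox islets were lower than those of WT islets, and the members were found by matching the gene identifiers of the count table to their symbols. Of the 2 genes, 1, Pfdn4, is described here by its counts, as 1 of 15286 genes of the table. The counts of Cyp24a1 were not analysed here, and that gene is described by its annotation and sequence only. The long non-coding RNA Gm16796, which also lies opposite to Pfdn4 and has counts, was added as the comparison after the values were seen.

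The libraries hold total RNA from pancreatic islets of 6 male C57BL/6N mice, 3 WT and 3 homozygous P07Rik flox/flox, at 12 weeks of age and with 1 library per mouse. The mice came from 2 litters of heterozygous parents, each with both genotypes. The flox/flox mice carried a promoter-driven neomycin cassette flanked by loxP sites in the first intron of A830019P07Rik, a long non-coding RNA gene, in every cell of the body, so the change was not limited to the islets. Mice of both genotypes were fasted overnight, and their islets recovered for 2 h at 3 mM glucose before RNA extraction. Litter 1 gave WT2772, WT2777, KO2775 and KO2776, and litter 2 gave WT2931 and KO2938. Where library names are left out, the values of a genotype stand in this order. The level of A830019P07Rik itself was not analysed here, and the genotypes are those of the labels.

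Pfdn4 encodes a subunit of prefoldin, a jellyfish-shaped cytosolic chaperone built of alpha and beta subunits that binds newly made actin and tubulin chains and hands them to the ring-shaped CCT chaperonin for folding. Cyp24a1 encodes the mitochondrial 24-hydroxylase that inactivates vitamin D, and it is a classical target of the vitamin D receptor, which pairs with a retinoid X receptor and binds DNA at direct repeats of a short half-site. Beta cells carry the vitamin D receptor, and vitamin D has long been studied for its effects on insulin secretion.

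In the annotation of genome build GRCm38 (mm10), Pfdn4 (ENSMUSG00000052033) lies on the plus strand at chr2:170496428-170519123, and its 7 transcripts have exons that cover 2520 bp in all. Cyp24a1 (ENSMUSG00000038567) lies on the minus strand at chr2:170482708-170497145, with 1 transcript of 12 exons that cover 3560 bp. The first exons of the genes overlap over 83 bp, at chr2:170496517-170496599. These bases are 5′ UTR in Pfdn4 and coding sequence in Cyp24a1, and they make up 3.29% of the exon bases of Pfdn4 and 2.33% of those of Cyp24a1. Of the 7 Pfdn4 transcripts, 1, Pfdn4-202, starts at this end, and the others start inside the gene. Gm16796 (ENSMUSG00000085495) lies on the minus strand at chr2:170499357-170511927, within the span of Pfdn4, and is annotated as antisense with 3 exons that cover 3172 bp. It shares 639 bp of exon with Pfdn4, which is 25.4% of the exon bases of Pfdn4 and 20.1% of its own, and 24 of these bases code for protein in Pfdn4. Gm16796 and Cyp24a1 share no exon base. Pfdn4 is thus covered on the opposite strand by Cyp24a1 at its outermost start and by Gm16796 around its inner starts.

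**Figure D1:**
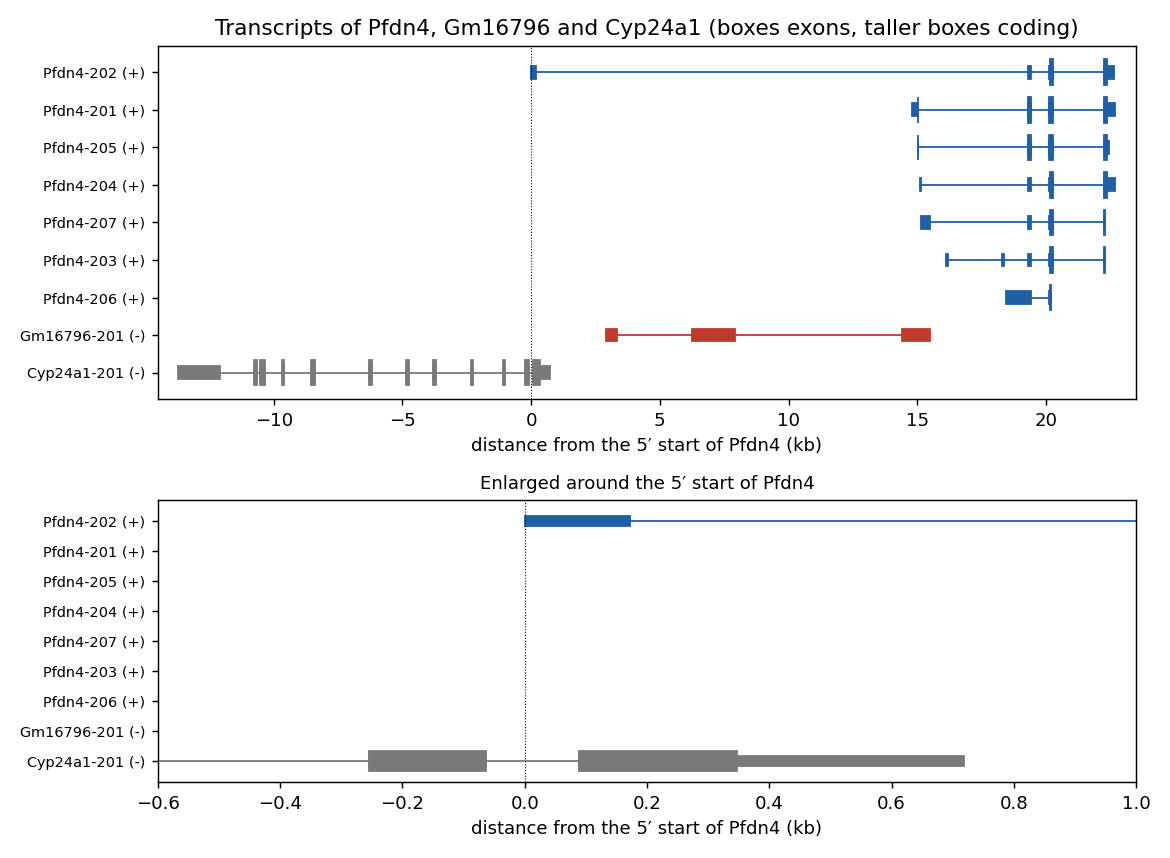
Transcripts of Pfdn4 (blue, plus strand), Gm16796 (red, minus strand) and Cyp24a1 (grey, minus strand) by distance from the 5′ start of Pfdn4 in kb, with exons as boxes and coding parts as taller boxes. The lower panel enlarges the start of Pfdn4, where the first exon of Pfdn4-202 and the first exon of Cyp24a1 share 83 bp.

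The 250 bases before the annotated starts show how closely the genes are packed. Both windows are from RefSeq, build GRCm38.p6, written 5′ to 3′ on the strand of the named gene, with bases that lie in an exon of the opposite gene in capitals. In the Pfdn4 window, chr2:170496178-170496427 on the plus strand, 187 of the 250 bases are the second exon of Cyp24a1 read from its other strand. In the Gm16796 window, chr2:170511928-170512177 on the minus strand, the last 10 bases are Pfdn4 exon.
Pfdn4: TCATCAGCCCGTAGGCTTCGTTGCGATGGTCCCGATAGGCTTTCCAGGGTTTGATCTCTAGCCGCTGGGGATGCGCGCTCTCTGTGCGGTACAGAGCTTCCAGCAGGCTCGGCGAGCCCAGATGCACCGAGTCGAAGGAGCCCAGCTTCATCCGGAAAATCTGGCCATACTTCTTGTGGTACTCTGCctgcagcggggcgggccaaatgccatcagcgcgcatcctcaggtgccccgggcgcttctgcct
Gm16796: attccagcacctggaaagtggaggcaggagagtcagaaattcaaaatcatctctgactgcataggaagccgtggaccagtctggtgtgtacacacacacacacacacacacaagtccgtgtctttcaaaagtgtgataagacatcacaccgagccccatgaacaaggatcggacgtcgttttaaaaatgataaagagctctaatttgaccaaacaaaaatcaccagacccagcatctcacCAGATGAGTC

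The Pfdn4 window is rich in G and C. Its GC content was 62.0%, against a median of 52.0% over the windows of 27018 promoters, and it held 19 CpG dinucleotides, against a median of 6. Of all promoters, 80.4% held fewer CpG than Pfdn4. The Gm16796 window had a GC content of 45.6% and 6 CpG. Both strands of the windows were searched for nuclear receptor half-sites, which can overlap each other. Neither window held AGGTCA (present in 13.8% of all promoters), AGTTCA (11.9%), GGTTCA (8.86%), GGGTCA (11.5%), AGGTGA (14.4%) or GGGTGA (13.5%). A direct repeat of these half-sites with the spacing bound by the vitamin D receptor was found in 0.152% of promoters and in neither of these. TATAAA (13% of promoters) and the heat shock motif GAANNTTC (6.78%) were also not found in these windows. The search covered these 250 bases only. The bases before the start of Cyp24a1 and before the inner starts of the other Pfdn4 transcripts were not examined.

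The table of counts is shallow, and this sets how far a gene such as Pfdn4 can be measured. Total counts ranged from 611181 to 800255 per library, and AY036118 took 13.6% to 41% of them, the most in KO2938. The paper gives a far higher sequencing depth, and why the total counts are lower was not tested. The defining beta cell gene Ins2 had 96 to 205 counts, or 0.012% to 0.0258% of a library, and genes with exons opposite to those of another gene held 83.6% of all counts. The libraries were strand-specific and were counted with the default strand setting, and whether that setting matched the kit was not tested. Counts per gene do not show from which strand a read came, so the counts of the Pfdn4 row cannot be told apart from reads of transcripts on the other strand of its exons. The same holds for every other gene named below, whose level is that of its row. No pair of libraries agreed within sampling noise, and each was counted as 1 sample.

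Pfdn4 had 12 counts in WT2772, 12 in WT2777 and 13 in WT2931. In the flox/flox libraries it had 6 counts in KO2775 and 1 each in KO2776 and KO2938. The 3 WT libraries were nearly alike and the flox/flox libraries all lay lower, with KO2775 between the WT libraries and the other flox/flox libraries. The standard deviation of the WT counts was 0.577, below the 3.51 that counting error alone would give at their mean.

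Scaled to CPM (a count divided by the library's total and multiplied to a common size, after TMM normalization), the Pfdn4 level was 16.5, 15.6 and 17.6 CPM in WT2772, WT2777 and WT2931. The flox/flox levels were 8.88 CPM in KO2775, 1.76 CPM in KO2776 and 1.75 CPM in KO2938, where 1 count was worth 1.48, 1.76 and 1.75 CPM. The means were 16.5 ± 1 CPM in WT and 4.13 ± 4.12 CPM in flox/flox (SD, n = 3 each), and the lowest WT library stood above the highest flox/flox library. Over all 5478 genes tested, 3.69% had every flox/flox library below every WT library and 3.74% had the opposite order, and since Pfdn4 was chosen on this contrast nothing is read from its place among them. The exact 95% Poisson intervals, which cover counting error only, ran from 8.05 to 27.2 CPM in WT2777 and from 3.26 to 19.3 CPM in KO2775, and overlapped. In KO2938 the interval ran from 0.0442 to 9.74 CPM.

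**Figure D2:**
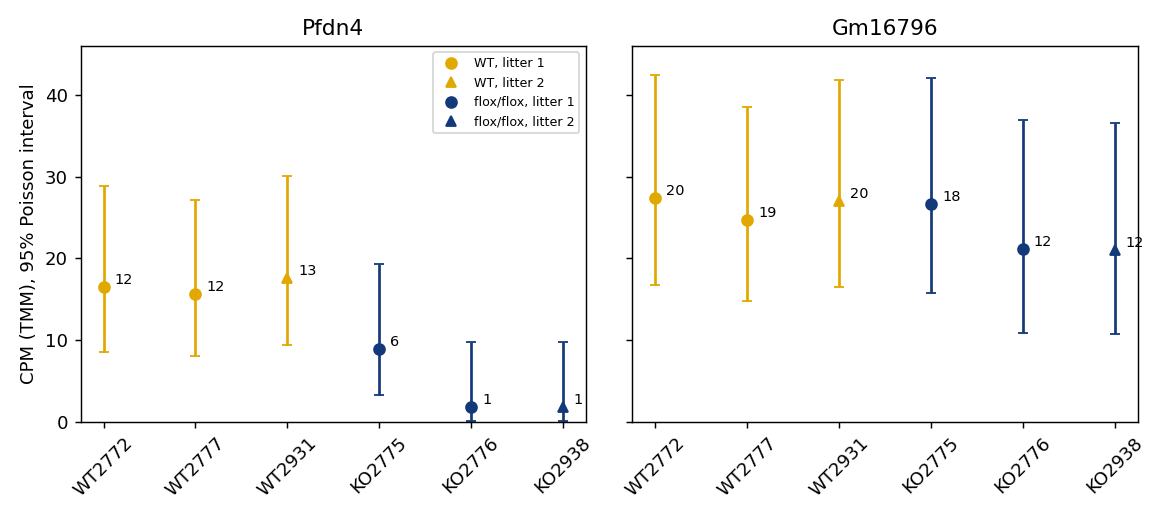
Levels of Pfdn4 (left) and Gm16796 (right) in CPM after TMM normalization in each of the 6 libraries, with exact 95% Poisson intervals as bars and the count beside each point. Pfdn4 lay at 15.6 to 17.6 CPM in WT and at 1.75 to 8.88 CPM in flox/flox, and the Gm16796 levels of the groups overlapped.

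Summed over the libraries, Pfdn4 had 37 counts in WT and 8 in flox/flox, a ratio of flox/flox to WT of 0.267 after scaling, with a 95% interval of 0.107 to 0.582 for counting error alone. Within litter 1 the ratio was 0.352 (0.128 to 0.841, from 7 against 24 counts). Within litter 2, with 1 library of each genotype, it was 0.0994 (0.00234 to 0.662, from 1 against 13 counts). The direction was the same in both litters, and the intervals overlapped widely. That direction follows from every flox/flox library lying below every WT library and is no separate evidence. The fitted log2 fold change of flox/flox over WT was -1.87 (standard error 0.56), and -3.10 without KO2775. These values describe the contrast on which Pfdn4 was chosen and carry no test. Pfdn4 passed the low-count filter, which asks for about 10 counts in 3 libraries, through its WT libraries alone, as did 42 genes (0.767% of those tested) that had 10 counts or more in each WT library and in no flox/flox library. In whole islets, fewer cells that use a gene, less RNA of it per cell and fewer reads from the other strand of its exons cannot be told apart.

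The summed markers of acinar and of immune cells also stood lower in the flox/flox libraries than in WT. Of single tested genes 3.69% had such an order, and no such share was computed for sums of markers. The summed level of the 9 acinar markers analysed, of 14 listed, was 76.8 to 104 CPM in WT and 51.1 to 69.9 CPM in flox/flox libraries. The acinar markers did not all follow their sum. Cpa1, Cela2a, Pnlip, Cel and Pnliprp1 overlapped between the groups, and the mean of Prss2 went the other way, at 1.8 CPM in WT and 3.9 CPM in flox/flox. The 3 immune markers analysed, of 7 listed, summed to 14.3 to 26.1 CPM in WT and 10.6 to 13.3 CPM in flox/flox. Among these, the mean level of the macrophage gene Cd68 was 11.3 CPM in WT and 3.23 CPM in flox/flox, that of Cd79a was 7.15 and 5.57 CPM, and that of C1qa went the other way, at 1.35 and 3.24 CPM. Their part in the Pfdn4 values was not tested. The summed beta cell markers overlapped between the groups, at 442 to 609 CPM in WT and 393 to 528 CPM in flox/flox.

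The counts of Gm16796 were 20, 19 and 20 in WT and 18, 12 and 12 in flox/flox. KO2775 lay among the WT libraries once scaled, at 26.6 CPM against 24.7 to 27.4 CPM in WT, and KO2776 and KO2938 lay lower, at 21.1 and 21 CPM. Its mean was 26.4 ± 1.5 CPM in WT and 22.9 ± 3.23 CPM in flox/flox (SD, n = 3 each). On the log2 scale the difference was -0.19 ± 0.31 (log2 fold changes are given with their standard error here and below), with an adjusted p of 1.00 by edgeR, and the ratio of summed counts was 0.878 (0.577 to 1.33, counting error only), an interval that holds both no change and a fall to 0.577 of WT.

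Set against each other, Pfdn4 counts made up 37.5%, 38.7% and 39.4% of the summed Pfdn4 and Gm16796 counts in the WT libraries. In KO2775 the share was 25% (Wilson 95% interval 12% to 44.9%), and in KO2776 and KO2938 it was 7.69% (1.37% to 33.3%). All 3 flox/flox libraries lay below the WT libraries, which restates the low Pfdn4 counts for which the locus was chosen and is no separate evidence, and the interval of each reached into the WT intervals, the lowest of which began at 22.9%. The order of the libraries was similar for both genes, with KO2776 and KO2938 lowest, and Pearson's r of their log2 CPM over the 6 libraries was 0.916, a description of libraries that share genotype, litter and depth.

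Per length of exon, Pfdn4 stood at 4.10 CPM per kb over the 6 libraries and Gm16796 at 7.77 CPM per kb. Among 10361 protein-coding genes of the table, Pfdn4 was at the 69.8th percentile of this scale, above the median of 1.57 CPM per kb. Protein-coding genes with exons opposite to another gene, as Pfdn4 has, had a median of 3.40 CPM per kb, and those without had a median of 1.11 CPM per kb. Genes annotated as antisense had a median of 24.8 CPM per kb, above Gm16796.

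Pairs of genes on opposite strands were compared by the rows of the table. The strand of the reads was not tested, so a row may hold reads of the other strand of its exons. The order of the rows in a pair is therefore not shown to be the order of the transcripts. In 22 pairs of a list gene or neighbour with an opposite gene, 16 had the higher level per kb in the row of the opposite gene. The row of Gm16796 stood 1.89 times above that of Pfdn4, a small ratio beside those of Klhdc9 over the prefoldin subunit gene Pfdn2 (69.6 against 6.31 CPM per kb), Acat3 over the chaperonin gene Tcp1 (204 against 14.2 CPM per kb) and Slirp over the vitamin D receptor coactivator gene Snw1 (165 against 2.81 CPM per kb). Cct8 over Usp16 (35.5 against 5.91 CPM per kb) and Pdia3 over Catsper2 (5.91 against 0.659 CPM per kb) had the reverse order.

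**Figure D3:**
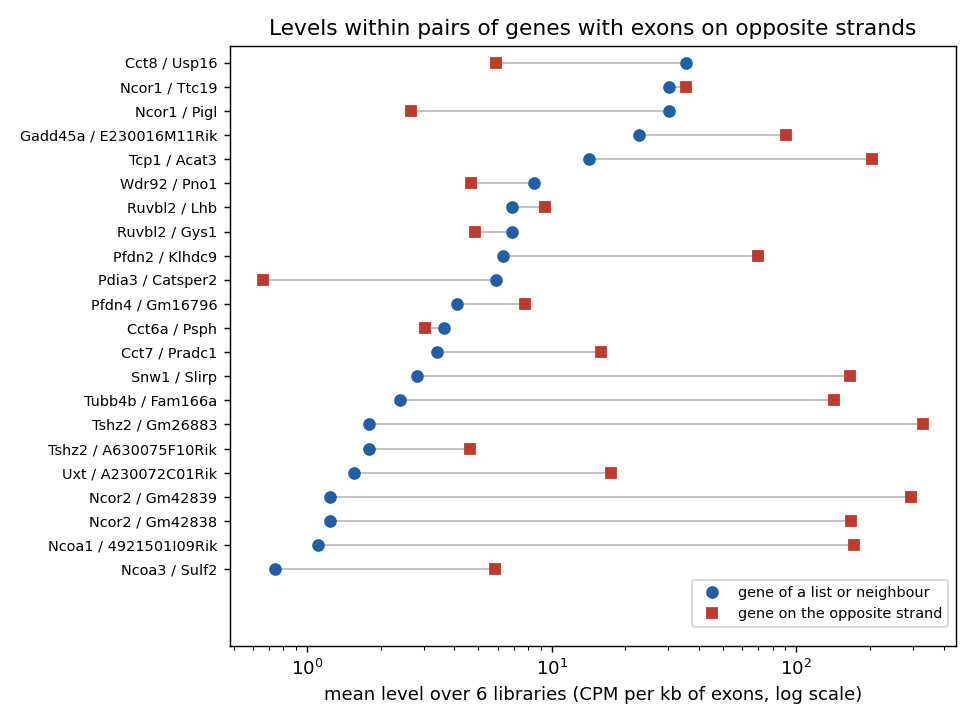
Mean level over the 6 libraries, in CPM per kb of exons on a log axis, of genes of the lists or neighbourhood (blue circles) and of the gene whose exons lie opposite (red squares), 1 pair per line. The row of the opposite gene was the higher in 16 of 22 pairs. The strand of the reads was not tested, so this need not be the order of the transcripts. Pfdn4 and Gm16796 stood close together at 4.10 and 7.77 CPM per kb.

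Litter, which was not used to choose the locus, allowed a test. Pfdn4 had a level of 1.76 to 16.5 CPM in the 4 libraries of litter 1. In the 2 libraries of litter 2 it had 1.75 and 17.6 CPM. Each litter holds both genotypes, for whose gap Pfdn4 was chosen, so the overlap of these ranges says nothing about litter. Within WT, litter 2 had 17.6 CPM against 16.5 and 15.6 CPM in litter 1. Within flox/flox, litter 2 had 1.75 CPM against 8.88 and 1.76 CPM in litter 1. The log2 fold change of litter 2 over litter 1, with genotype in the model, was -0.14 ± 0.52 (standard error) with an adjusted p of 0.899 by edgeR's quasi-likelihood test, and for Gm16796 it was -0.05 ± 0.34 with an adjusted p of 0.941. With these errors a change of moderate size in either gene could have been missed. In the same fit, 11.3% of the tested genes passed an adjusted p of 0.05, with 5.24% lower and 6.08% higher in litter 2.

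The other subunits of prefoldin were measured unevenly. Of the 6 subunit genes, 4 were analysed and 2, Pfdn1 and Pfdn4, passed the filter. Vbp1 and Pfdn5 were not analysed here. Pfdn1, a beta subunit gene with no exon opposite to another gene, had 19, 21 and 20 counts in WT against 12, 13 and 12 in flox/flox. All flox/flox counts of Pfdn1 were below the WT counts, and the groups stayed apart when scaled, at 26.1 to 27.3 CPM in WT and 17.8 to 22.9 CPM in flox/flox, an order that 3.69% of all tested genes had. Its log2 fold change was -0.39 ± 0.32, with an adjusted p of 1.00 by edgeR. Pfdn2, another beta subunit gene, had 5, 8 and 8 counts in WT and 8, 15 and 4 in flox/flox libraries, with no common direction. Pfdn6 had 0 to 3 counts per library. Per length, the order of the subunits was Pfdn1 at 21.3, Pfdn2 at 6.31, Pfdn4 at 4.10 and Pfdn6 at 1.65 CPM per kb.

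No gene of the whole table passed an adjusted p of 0.05 between genotypes, a background of 0% of 5478 genes, against 1.84% with an unadjusted p under 0.05 and 0.0548% called with the litter as a block. The lists below therefore had no calls for genotype in either direction, and their values stand as descriptions. The median log2 fold change of all tested genes was -0.011 for genotype and -0.0092 for litter.

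Of the 8 prefoldin-like and R2TP genes, whose products work in assembly complexes related to prefoldin, 4 were analysed here and 2 were tested. For genotype, Wdr92 differed by 0.51 ± 0.33 and the ATPase gene Ruvbl2 by 0.16 ± 0.38 (log2 fold change ± standard error). Both values were above 0, unlike that of Pfdn4, and neither passed the test.

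The 8 genes of the CCT chaperonin, which receives the chains that prefoldin holds, all had counts, and 4 were tested, with a median log2 fold change of -0.12 for genotype and -0.035 for litter. Cct8 had 74, 97 and 77 counts in WT against 68, 63 and 65 in flox/flox, with a log2 fold change of -0.03 ± 0.18. Tcp1 had 54, 63 and 56 counts in WT against 50, 34 and 37 in flox/flox, with a log2 fold change of -0.22 ± 0.21. Cct5 (-0.48) and Cct7 (0.36) lay on either side of 0, so the chaperonin genes had no common direction, and none was called for litter.

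Of the 12 actin and tubulin genes, the clients of prefoldin, 10 were analysed here and 2 were tested. Actb had 32, 40 and 26 counts in WT and 20, 24 and 14 in flox/flox, and its log2 fold change was -0.45 ± 0.30, with an adjusted p of 1.00 by edgeR. Tubb5 had 9 to 16 counts and a log2 fold change of -0.08 ± 0.34. The median for the list was -0.26 for genotype and -0.14 for litter.

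**Figure D4:**
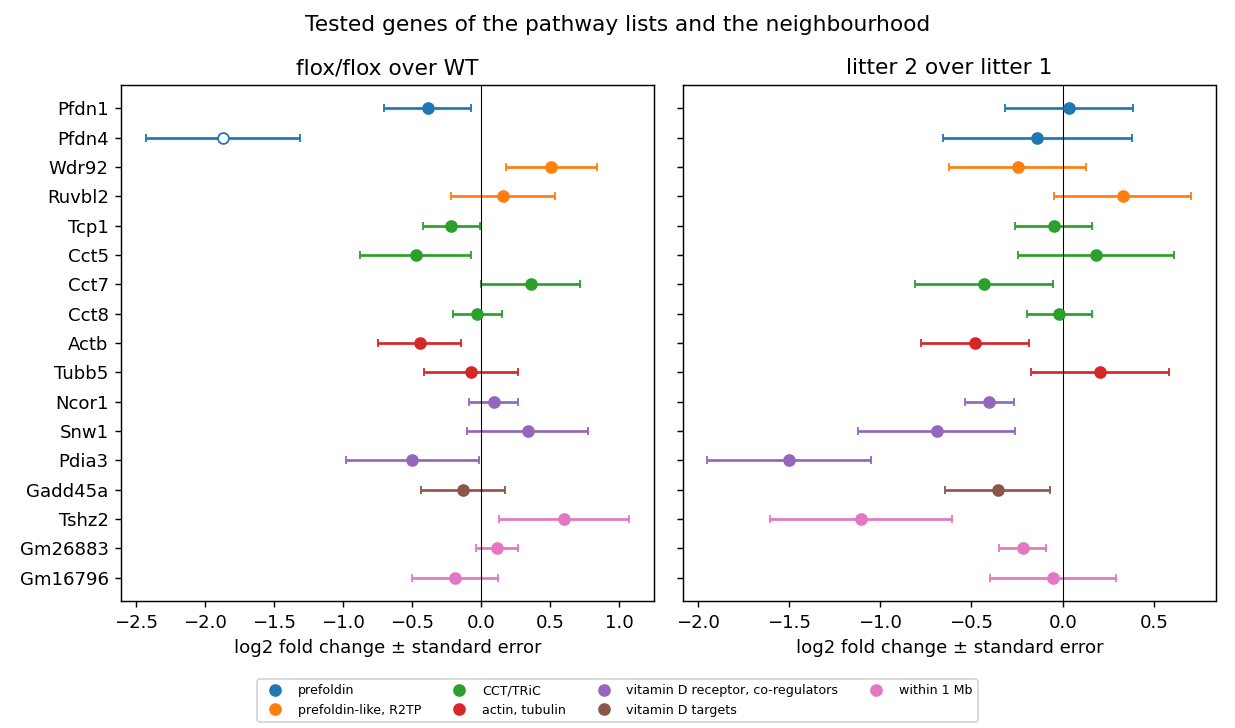
Log2 fold change ± standard error of the tested genes of the prefoldin, chaperonin, client and vitamin D lists and of the neighbourhood, for flox/flox over WT (left) and for litter 2 over litter 1 (right). The open point is Pfdn4 in the contrast on which it was chosen, at -1.87, and the genes called for litter were Ncor1 at -0.40 and Pdia3 at -1.50.

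On the vitamin D side of the locus, 4 of the 12 genes for making, breaking and carrying vitamin D were analysed, and none of these 4 passed the filter. The other 8 were not analysed here. Cyp27b1, which makes the active hormone and so acts opposite to Cyp24a1, had 2, 11 and 17 counts in WT against 5, 8 and 10 in flox/flox. The spread within the WT libraries spanned the flox/flox libraries. Cyp2r1, which makes the first hydroxylated form, had 2 to 6 counts per library.

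The receptor gene Vdr had 1, 1 and 0 counts in WT and 4, 3 and 2 counts in flox/flox libraries. Every flox/flox library stood above the WT libraries, an order seen in 3.74% of all tested genes. Vdr did not pass the filter and was not tested, so it lies outside the genes of that share. Med1, a subunit of the Mediator complex that binds the receptor, had 12, 9 and 4 counts in WT and 0, 3 and 3 in flox/flox. In CPM its groups stood apart in the opposite direction, an order seen in 3.69% of tested genes. The nearest libraries were WT2931 at 5.41 CPM and KO2776 at 5.28 CPM. Med1 was not tested either and lies outside the genes of that share. The receptor partners of Vdr had 1 to 5 counts (Rxra) and 1 to 6 counts (Rxrb). Of the 13 receptor and co-regulator genes, 12 were analysed here and 3, Ncor1, Snw1 and Pdia3, were tested.

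Of these 3 genes, 2 were lower in litter 2, where 5.24% of all tested genes were. Pdia3, a disulfide isomerase also described as a membrane binder of vitamin D, had 19, 24, 12 and 11 counts in WT2772, WT2777, KO2775 and KO2776 of litter 1 and 6 and 5 counts in WT2931 and KO2938 of litter 2. Both libraries of litter 2 lay below all of litter 1, and the log2 fold change was -1.50 ± 0.45, with an adjusted p of 0.0207 by edgeR. Ncor1, a corepressor of nuclear receptors, had 303, 330, 294 and 224 counts in litter 1 and 205 and 207 counts in litter 2, and its log2 fold change was -0.40 ± 0.13, with an adjusted p of 0.0416 by edgeR. Neither call held when WT2931 was left out, where the log2 fold change was -1.06 for Pdia3 (adjusted p = 0.471 from edgeR) and -0.19 for Ncor1 (adjusted p = 0.652 from edgeR). Hspa5, an endoplasmic reticulum chaperone gene as Pdia3 is, was also lower in litter 2 (log2 fold change -0.83, adjusted p = 0.00157 from edgeR), as was Gcg, the glucagon gene of alpha cells (-1.13, adjusted p = 0.00267 from edgeR). The 3 alpha cell markers analysed, of 5 listed, summed to 77.0 to 173 CPM in litter 1 and 54.2 to 64.9 CPM in litter 2, and the 10 beta cell markers to 487 to 609 and 393 to 442 CPM. The 3 ductal markers analysed, of 7 listed, went the other way, from 94.7 to 144 CPM in litter 1 to 154 to 177 CPM in litter 2. Their part in the Pdia3 and Ncor1 values was not tested.

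Of the 24 vitamin D target genes, 11 were analysed here and 1 was tested. The log2 fold change of Gadd45a, a growth arrest gene, was -0.13 ± 0.30 for genotype and -0.36 ± 0.29 for litter, the latter with an adjusted p of 0.467 by edgeR. The calcium handling targets S100g (0 to 7 counts), Trpv6 (1 to 4 counts) and Calb1 (0 to 4 counts) were near the limit of what these counts can show.

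Of the 23 annotated genes within 1 Mb of the pair, 6 were analysed here and 3, Gm16796, Tshz2 and Gm26883, were tested. Gm26883, a long intergenic non-coding RNA, had 1276, 1205 and 1126 counts in WT against 1352, 983 and 856 in flox/flox, and at 328 CPM per kb it had the highest level of the neighbourhood. Its log2 fold change was 0.11 ± 0.15. The transcription factor gene Tshz2, which lies opposite to Gm26883, had 7, 13 and 5 counts in WT against 15, 11 and 5 in flox/flox, and its log2 fold change was 0.60 ± 0.47. Neither gene had the direction seen for Pfdn4. Bcas1, on the Cyp24a1 side, had 0 to 5 counts.

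Among the 5 genes whose log2 CPM followed that of Pfdn4 most closely over the 6 libraries, of 5477 compared, were Jade2 (Pearson's r 0.987), Tagln2 (0.980), Nacad (0.977) and Otub2 (0.964). Spearman's rho of these 4 genes was 0.771 to 0.943, and 24 genes (0.438%) reached an r of 0.9. Jade2 had 15, 15 and 14 counts in WT and 9, 5 and 5 in flox/flox libraries. Tagln2, an actin-binding protein gene, had 13, 16 and 15 counts in WT and 10, 5 and 4 in flox/flox libraries. As for Pfdn4, KO2775 stood between the WT libraries and the other flox/flox libraries in Jade2 and Tagln2. The genotype log2 fold changes of the 4 genes ran from -0.91 for Tagln2 to -0.29 for Otub2. Their likeness to a gene chosen for its low flox/flox counts leads to this direction, and it is no separate evidence. None of the 4 has exons opposite to another gene.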

How the data were processed

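RNA of 6 islet samples (3 WT, 3 flox/flox, in 2 litters, per the labels) was sequenced by the authors as strand-specific total RNA libraries with 125 bp single-end reads on a HiSeq 2000. Reads on rRNA were discarded, the rest mapped to mm10 with HISAT2 2.1.0, and counted per Ensembl gene with HTSeq at its default strand setting. The deposited values are raw counts per gene and library. The authors' second table holds their own DESeq2 means, fold changes, errors and p-values and was not used. Members and lists were chosen with earlier results of these data known.

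Of 15286 genes, 15258 were matched by identifier to GENCODE M21, and 28 were not. Each listed gene had at least 3 counts in total. Counts were normalized by TMM and tested with edgeR 4.0.16 (quasi-likelihood) in R 4.3.3, with limma 3.58.1 and DESeq2 1.42.0 as alternatives, the default low-count filter (minimum count 10) and Benjamini-Hochberg adjustment at 0.05. The filter kept 5478 genes, which hold 95.4% of counts. Normalization factors ran from 0.739 (KO2938) to 1.12. Genotype was the only term for genotype, and genotype was a covariate for litter. Log2 CPM used a prior count of 2. Both fits were tested on simulated counts. Intervals and the share of a pair cover counting error only. At total counts of 611181 to 800255, 1 count was worth 1.30 to 1.76 CPM.

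The litter labels pair libraries across genotypes. Deviations from the group means correlated at 0.141 to 0.458 within a litter and at -0.349 to -0.254 between litters. Named genes were the pair, 7 pathway lists, neighbours within 1 Mb, the 5 genes most like Pfdn4 by Pearson's r, of which 1 is not reported here, and genes opposite to list members, plus markers of islet and other cell types. Delta, endothelial and stromal markers overlapped between genotypes. Planned values for Cyp24a1 were not computed, as its counts were not analysed here, and the share of the pair with Gm16796 was chosen after this was known. Alternatives were other normalizations, filters and tests, a litter block, and each library left out in turn.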

Additional observations from a re-analysis of the deposited data

How the results depend on the processing

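Few counts limited the precision, with 1 to 13 per library for Pfdn4, and Cyp24a1 was not analysed here, so the settings meant for it gave no value. Pfdn4 also gave no value with at least 10 counts in every library. Its genotype log2 fold change of -1.87 ran from -2.08 (library size only, limma-voom) to -1.84 (no filter), was -1.87 with litter as a replicate block, and ran from -3.10 (without KO2775) to -1.53 with single libraries left out. Its litter log2 fold change of -0.14 ran from -1.58 (without WT2931) to 0.14 (without KO2938) with single libraries left out, and was 0.12 without KO2775. Its adjusted p was 0.622 to 0.978 wherever one was given, and DESeq2 gave -0.36 with none.

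The genotype count of 0 became 2 with library size only, 3 with the replicate block, and 0 to 1 with libraries left out, where the 1 call came without KO2938. Library size alone moved the median genotype log2 fold change of all genes to -0.23. The pairing changed no call for a gene of the lists. The litter count of 620 became 265 with library size only and 186 with DESeq2, and 233 to 540 with libraries left out, lowest without WT2931. The 2 litter calls of the lists became 1 with library size only, no filter, 10 counts in every library, or limma-voom, 0 with DESeq2, and 0 to 2 with libraries left out (0 without WT2777 or WT2931). The litter log2 fold changes of Pdia3 and Ncor1 stayed below 0 in every setting that gave a value, and without WT2931 that of Ncor1 was -0.19 in place of -0.40. Pdia3 passed in 10 of 13 settings with an adjusted p and Ncor1 in 8 of 15. The cause of these changes was not tested. The 5 genes most like Pfdn4 were the same 5 with a prior count of 0.5.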
